A study of Homo sapiens with 36 samples.

Results

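The genes described here are those of the integrated stress and amino acid response: 6 transcription factors around ATF4, 8 stress effectors, the enzymes of amino acid and one-carbon synthesis, 7 amino acid transporters, and 8 genes of tRNA charging and tRNA export. They were chosen by name, and 40 genes were listed. Of these, 39 had an array probe annotated to a single gene symbol, among 17958 genes measured in that way. GPT2, an alanine transaminase, had none and was not analysed here. Where a gene had several such probes, the probe with the highest mean over all arrays was used.

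The values come from 36 single-colour Affymetrix arrays of 3 established lines from triple-negative breast tumours, which the labels call MDA231, SUM159PT and BT549. Each line had 4 groups of 3 arrays, lettered A, B and C. DUSP4, the gene silenced in the study, encodes a phosphatase that acts on MAP kinases, and selumetinib (AZD6244) inhibits MEK, the kinase that activates ERK, so the design asks how loss of the phosphatase and inhibition of MEK change expression in each line. The siCONTROL group received a pool of non-targeting siRNA and the drug's solvent DMSO, the siDUSP4 group received siRNA against DUSP4 and DMSO, and both AZD6244 groups carried the non-targeting siRNA and received selumetinib at 1 uM for the last 4 h or the last 24 h. All groups were transfected with 10 nM siRNA and collected at 96 h. Within a line, the siDUSP4, 4 h and 24 h comparisons share the same 3 siCONTROL arrays. The lines were grown in different media (MDA231 in DMEM with serum, BT549 in RPMI with serum, SUM159PT in DMEM/F12 with less serum and with hydrocortisone), so line and medium cannot be told apart, which bears directly on genes that respond to amino acid supply. Whether A, B and C were grown separately is not stated in the labels, and each p-value is therefore a measure of the spread among these arrays alone, which may be technical. For 24 arrays the title and the source name disagree over SUM159PT and BT549, and titles were followed. RB1, which BT549 is known to lack, averaged 10.31 in the siCONTROL arrays titled MDA231, 9.40 in those titled SUM159PT and 6.83 in those titled BT549 on the deposited log2 scale, and CDKN2A averaged 4.23, 4.12 and 9.82. RB1 rose with siDUSP4 in the arrays titled BT549 by 1.20 (limma adjusted p = 4.8e-11), to 8.03, which remained below the RB1 mean of every group titled MDA231 or SUM159PT (the lowest was 9.12).

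The integrated stress response starts with kinases that phosphorylate the translation factor eIF2 when amino acids, heme or protein folding fail, or when a virus is sensed. General translation then slows while translation of ATF4 mRNA increases, and ATF4, paired with C/EBP or related factors, activates genes that make, import and charge amino acids onto tRNA. ATF4 activity is therefore set largely at translation, which an array of mRNA levels does not measure. In breast cancer the serine synthesis branch of this set, PHGDH in particular, is known to be raised in a share of tumours.

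ATF4 with C/EBP factors binds a composite element written TGATGNAA, best known from the ASNS promoter as a nutrient-sensing element. The RefSeq promoters (GRCh38.p14, 250 bases before to 50 after each transcription start) held an entry for 33 of the 40 genes, and 7 had none. On either strand, TGATGNAA was found in 12 of the 33 (36.4%), against 4.46% of the 27305 genes with a promoter entry. A gene with several start sites had several windows and was counted if any of them matched. The 33 genes had 50 windows. All genes had 35116, of which 3.62% held TGATGNAA, so the shares by gene do not rest on equal search lengths. The narrower TGATGCAA, which lies within the first motif, was in 8 of the 33 (24.2%) against 1.08% of all genes. The cyclic AMP response element TGACGTCA was in 1 (3.03%, PPP1R15A) against 2.25%, and the E-box CACGTG in 5 (15.2%: ATF4, ALDH18A1, SLC7A5, SLC1A5 and HERPUD1) against 8.77%. A match is a description of letters in this window and does not show binding. The genes were listed for a response in which ATF4 acts, so a raised share of its element is not independent of the choice. The 12 matches are printed on the gene's strand with the element in capitals, as TGATGNAA or its reverse complement, and the flanking bases in lower case.
CHAC1: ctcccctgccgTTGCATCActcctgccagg
CEBPG: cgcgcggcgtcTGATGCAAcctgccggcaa
ASNS: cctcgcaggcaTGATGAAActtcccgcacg
SLC7A1: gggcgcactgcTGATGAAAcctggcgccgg
SLC3A2: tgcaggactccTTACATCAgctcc
SLC1A4: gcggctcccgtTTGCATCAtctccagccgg
SLC1A5: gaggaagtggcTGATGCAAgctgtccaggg
HERPUD1: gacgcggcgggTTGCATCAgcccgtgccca
AARS1: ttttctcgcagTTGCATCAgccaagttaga
GARS1: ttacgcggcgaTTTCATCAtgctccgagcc
MARS1: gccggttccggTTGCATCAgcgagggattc
NARS1: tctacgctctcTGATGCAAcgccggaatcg
The ASNS stretch lies at chr7:97872458-97872487 on the minus strand, the CHAC1 stretch at chr15:40953251-40953280 on the plus strand, the SLC1A4 stretch at chr2:64989381-64989410 on the plus strand and the CEBPG stretch at chr19:33374060-33374089 on the plus strand. Counted from the transcription start, the element begins at -68 in ASNS, -209 in CHAC1, -42 in CEBPG and -7 in SLC1A4. The 250 bases upstream of ASNS, the gene of the 39 whose level changed most with siDUSP4 in MDA231, show the element close to the start (chr7:97872409-97872658, minus strand).
ASNS upstream: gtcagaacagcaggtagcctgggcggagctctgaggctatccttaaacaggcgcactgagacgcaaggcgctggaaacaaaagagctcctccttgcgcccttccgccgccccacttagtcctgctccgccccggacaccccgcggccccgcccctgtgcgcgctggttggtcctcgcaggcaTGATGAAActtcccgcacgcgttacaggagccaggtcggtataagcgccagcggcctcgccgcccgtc

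**Figure D1:**
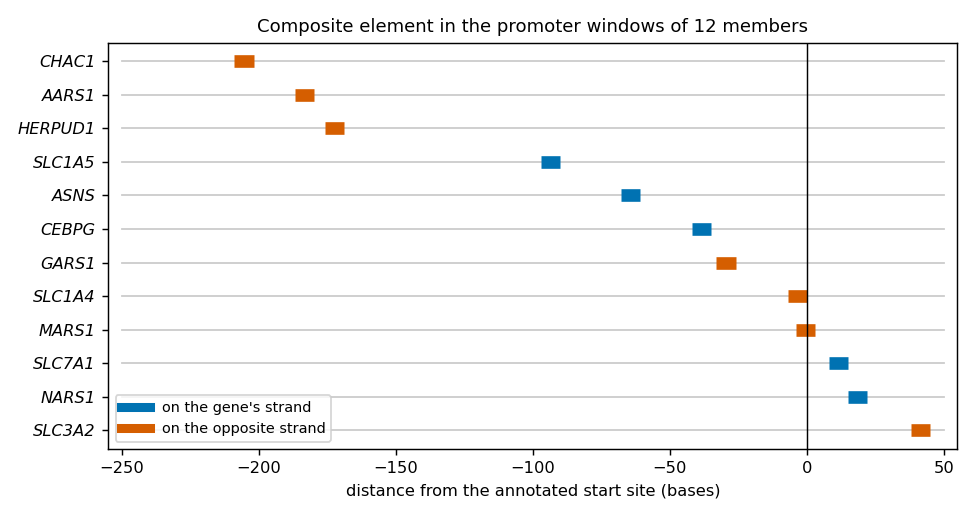
Position of the composite element in the promoters of the 12 genes that hold it, as distance in bases from the transcription start (x axis, 250 before to 50 after), with blue for matches on the gene's strand and orange for the opposite strand. The element begins between position -209 (CHAC1) and position 38 (SLC3A2).

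With siDUSP4, DUSP4 itself changed by -2.42 log2 units in MDA231 (from 10.06 to 7.64), by -1.84 in SUM159PT (from 7.14 to 5.30) and by -2.24 in BT549 (from 7.13 to 4.89). DUSP6, a feedback target of ERK, changed at 4 h of selumetinib by -4.53, -2.91 and -1.60 in the same order of lines. VIM, ZEB1, CD44 and AXL, markers of mesenchymal breast lines, averaged between 9.45 (ZEB1 in SUM159PT) and 12.15 (VIM in MDA231) in the siCONTROL groups. ESR1, PGR and CDH1, listed as low in such lines, averaged between 3.40 (PGR in MDA231) and 5.04 (CDH1 in BT549) there. ERBB2 and EPCAM, also listed as low, were not low throughout. In siCONTROL of MDA231, SUM159PT and BT549, ERBB2 averaged 7.32, 7.77 and 7.32, and EPCAM 8.39, 5.52 and 4.89. Of 8 markers of blood and endothelial cells 6, 5 and 8 lay below the median level of all probes (5.27) in the siCONTROL groups of MDA231, SUM159PT and BT549, and the highest was PECAM1, at 7.37 in MDA231 and 7.11 in SUM159PT. Array medians ran from 5.12 to 5.40. Upper quartiles of 3 arrays stood below all others, of which the lowest was 7.70 (SUM159PT AZD6244 4h A). The 3 were 7.48 and 7.66 for MDA231 AZD6244 4h B and C, and 7.50 for BT549 AZD6244 24h A, against a highest of 8.03. Apart from that of DUSP6, the changes called against siCONTROL at 4 h in MDA231 and at 24 h in BT549 that are given gene by gene are therefore also given without them.

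In control cells the genes were highest in BT549. Of the 39, 35 were lower in MDA231 than in BT549 and 3 were higher, where 26.3% of all genes were called lower and 21.8% higher (limma, one model over all arrays, Benjamini-Hochberg adjusted p under 0.05 over 17958 genes). In SUM159PT 31 were lower than in BT549 and 4 higher, against 27.9% and 22.3% of all genes. The median difference was -1.17 for MDA231 minus BT549 and -1.58 for SUM159PT minus BT549. Between MDA231 and SUM159PT, 20 were higher in MDA231 and 8 lower, with 23.1% and 21.7% of all genes called in those directions and a median difference of 0.27. CTH, the enzyme that makes cysteine from cystathionine, was among the exceptions: at 8.39, 8.39 and 8.45 in MDA231, 7.35, 7.40 and 7.37 in SUM159PT and 5.85, 6.35 and 6.43 in BT549, it was lowest in BT549. ALDH18A1, the first enzyme of proline synthesis from glutamate, was also lowest in BT549 (0.44 lower than in MDA231 and 0.56 lower than in SUM159PT).

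**Figure D2:**
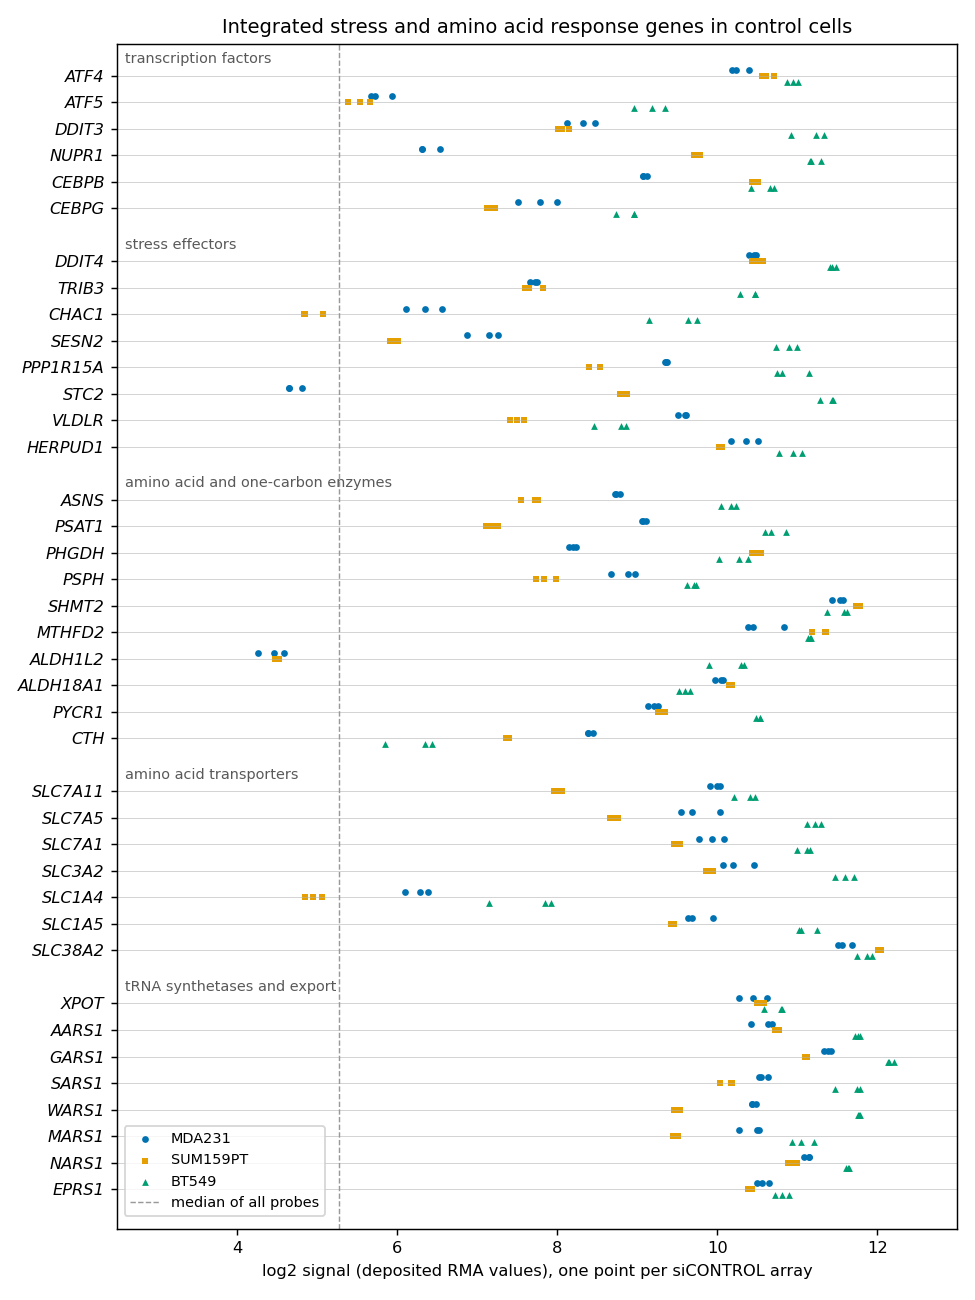
Level of each of the 39 genes (y axis, grouped by role) in the siCONTROL arrays of the 3 lines, as deposited log2 values (x axis), each point 1 array and the dashed line the median level of all probes (5.27). The BT549 points lie to the right of those of MDA231 for most genes, and CTH shows the opposite order.

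The widest differences between control lines were those of STC2, ALDH1L2, SESN2, NUPR1 and CHAC1. STC2, a secreted glycoprotein induced by endoplasmic reticulum stress, was at 4.64, 4.64 and 4.81 in MDA231, 8.87, 8.81 and 8.78 in SUM159PT and 11.28, 11.43 and 11.45 in BT549, so that no arrays of different lines overlapped. ALDH1L2, a mitochondrial folate enzyme, was at 4.58, 4.45 and 4.25 in MDA231 and at 4.52, 4.48 and 4.47 in SUM159PT, all below the median of all probes, and at 9.90, 10.33 and 10.29 in BT549. SESN2, a leucine-binding inhibitor of mTORC1 signalling, differed by -4.92 between SUM159PT and BT549 and by 1.14 between MDA231 and SUM159PT. Thus ALDH1L2 separated BT549 from both other lines, whose arrays overlapped, while STC2 and SESN2 separated all 3 lines. Between MDA231 and SUM159PT 11 genes were not called, among them DDIT4, TRIB3, PYCR1 and DDIT3. The arrays of PYCR1, ATF5 and ALDH18A1 nevertheless did not overlap between these lines. SHMT2 alone was not called between MDA231 and BT549.

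siDUSP4 lowered many of these genes in MDA231 and few in SUM159PT. In MDA231, 22 of 39 fell and 2 rose (PPP1R15A and SLC3A2), where 9.77% of all genes were called lower and 7.86% higher, and the median change was -0.41 against 0.01 over all genes. In SUM159PT 2 fell and 1 rose (1.78% and 1.05% of all genes). In BT549 8 fell (9.22% of all genes, with 4.97% called higher). In the mean of the 3 lines 19 fell and 1, SLC7A11, rose (11.3% and 7.43% of all genes). By role, the calls lower in MDA231 were 2 of 6 transcription factors, 5 of 8 stress effectors, 7 of 10 enzymes, 4 of 7 transporters and 4 of 8 tRNA genes. With quantile normalization repeated, BT549 had 3 higher and 10 lower, SUM159PT 1 and 4, and the mean of the lines 4 and 19. The shares of all genes above are those of the main fit and do not apply to these counts. Leaving out siDUSP4 array A gave 17 calls in MDA231.

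**Figure D3:**
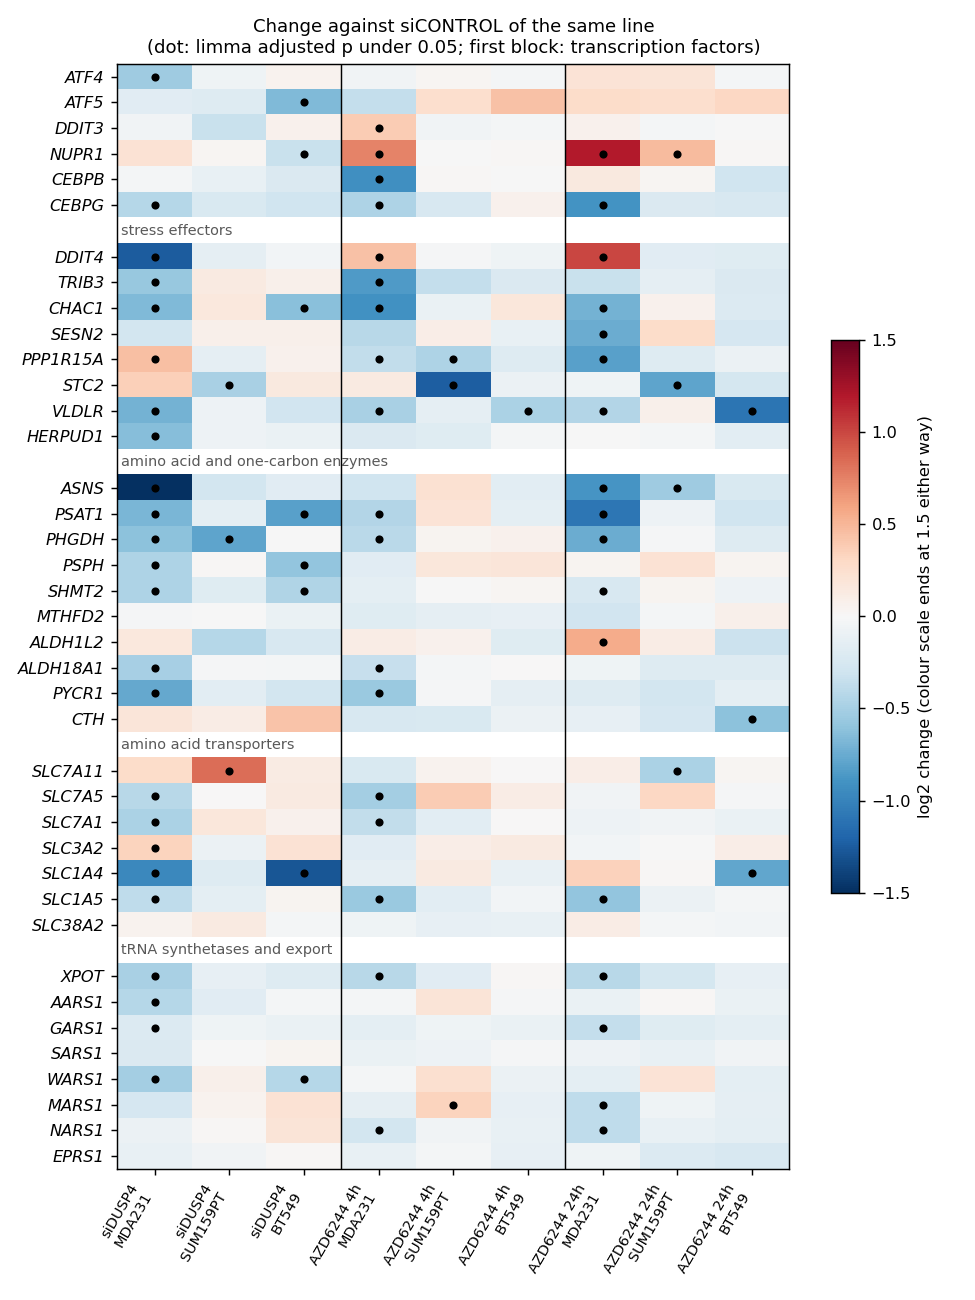
Log2 change against siCONTROL of the 39 genes (vertical, grouped by role) in the 9 treatment and line comparisons (horizontal), with colour ending at 1.5 in either direction and a dot where limma called the change. The siDUSP4 column of MDA231 holds 22 lower calls, and both selumetinib columns of MDA231 hold more dots than those of the other lines.

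Selumetinib for 4 h lowered more genes in MDA231 than it raised, and most of the falls were smaller in array A than in arrays B and C. With all arrays, 15 of 39 fell and 3 rose (NUPR1, DDIT4 and DDIT3), where 14.5% of all genes were called lower and 1.11% higher, and the median change was -0.23 against -0.13 over all genes. Taken singly against the siCONTROL mean, array A had a median change of 0.03 over the 39 genes with 18 below zero, array B -0.40 with 36 below and array C -0.28 with 31 below. All genes moved in the same order, with medians of -0.01, -0.27 and -0.14. With array A alone, assumed to vary as other groups do, NUPR1, DDIT4 and DDIT3 kept a positive change. The falls were not called in that fit, and neither were most of the genes called lower with all arrays. A group of 1 array has no spread of its own. The 15 genes that fell all had a negative change in array A alone, below 50% of the change over all arrays for 12 of them, and the median change of the 15 was -0.20 in place of -0.46. With the arrays of MDA231 alone, 3 of the 18 calls held (NUPR1, TRIB3 and CEBPB), and with the 2 groups alone limma called 0, with 15 of 39 at an unadjusted p under 0.05. The part that these arrays' lower signal plays in the result was not tested further. In SUM159PT 2 genes fell and 1 rose (3.81% and 0.473% of all genes). In BT549 VLDLR alone fell (0.49% of all genes, with 0.161% called higher), a call lost with the arrays of BT549 alone, where 2 of 39 had an unadjusted p under 0.05. In the mean of the lines 11 fell and 1 rose (12.7% and 1.12% of all genes), and fewer fell with MDA231 array A only.

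**Figure D4:**
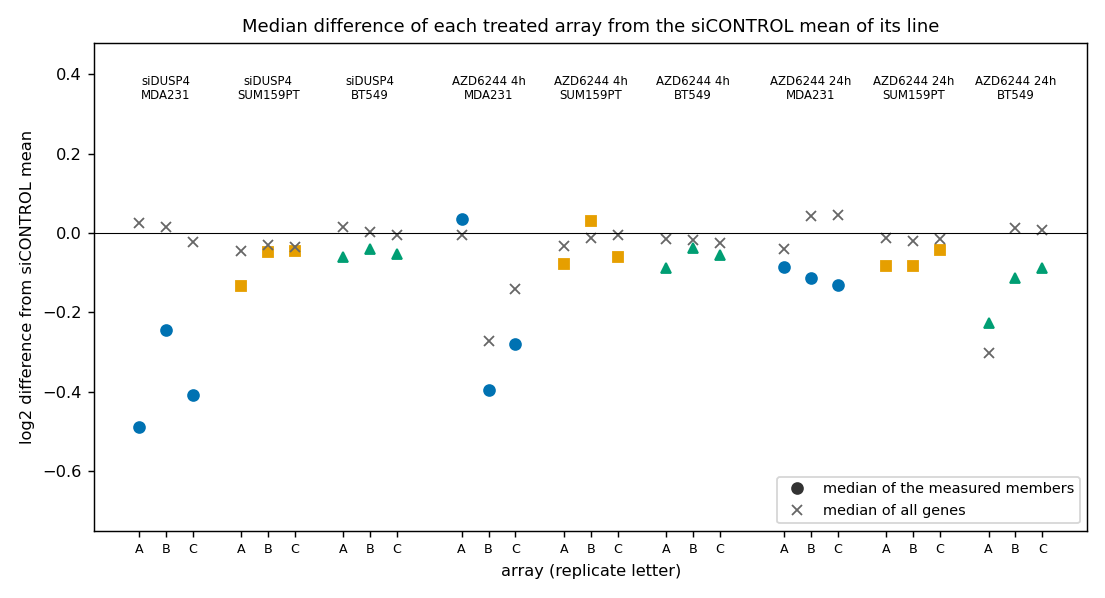
Median change over the 39 genes (filled points) and over all genes (crosses) in each treated array against the mean of its line's siCONTROL arrays, in log2 units (y axis). The siDUSP4 arrays of MDA231 lie at -0.49, -0.24 and -0.41 with all genes near zero, whereas in MDA231 4 h arrays B and C and BT549 24 h array A both marks lie below zero.

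At 24 h of selumetinib 14 of 39 fell in MDA231 and 3 rose (NUPR1, DDIT4 and ALDH1L2), where 10.3% of all genes were called lower and 7.36% higher, and the median change was -0.10 against 0.02 over all genes. In SUM159PT 3 fell and 1 rose (2.94% and 1.34% of all genes). After repeated quantile normalization, for which no share of all genes is given, 3 fell and 3 rose. In BT549 3 fell (12.4% of all genes, with 2.66% called higher), with 2 called without array A and 1 with the 2 groups alone. The BT549 arrays A, B and C had medians of -0.23, -0.11 and -0.09 over the 39 genes. With all arrays the share of the 39 called was below that of all genes. Without array A that order did not hold. There 2 of the 39 were called, where 2.04% of all genes were called lower and 0.986% higher. In the mean of the lines 16 fell and 3 rose (19.2% and 7.24% of all genes). By role, the lower calls in MDA231 were 1 of 6 transcription factors, 4 of 8 stress effectors, 4 of 10 enzymes, 1 of 7 transporters and 4 of 8 tRNA genes.

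Among the transcription factors, ATF4, the central activator of the response, fell with siDUSP4 in MDA231 and was not called in the other lines. Its siCONTROL arrays in MDA231 read 10.24, 10.18 and 10.40, and its siDUSP4 arrays 9.59, 9.83 and 9.78. All siDUSP4 arrays lay below all siCONTROL arrays, with a change of -0.54 ± 0.09 (SE, n = 3 per group, limma adjusted p = 6.4e-05), to 68.8% of control. In SUM159PT the arrays read 10.55, 10.71 and 10.61 with siCONTROL and 10.49, 10.62 and 10.58 with siDUSP4, and in BT549 11.01, 10.95 and 10.88 against 10.92, 11.04 and 11.05. These groups overlapped, with changes of -0.06 and 0.06, and the change in MDA231 differed from that in SUM159PT by -0.48 (adjusted p = 0.022) and from that in BT549 by -0.60 (adjusted p = 0.0019). With selumetinib ATF4 read 10.31, 10.02 and 10.34 at 4 h and 10.39, 10.52 and 10.52 at 24 h in MDA231, 10.68, 10.61 and 10.66 then 10.81, 10.75 and 10.89 in SUM159PT, and 10.83, 11.01 and 10.92 then 10.77, 11.00 and 10.97 in BT549, with no change called. A second ATF4 probe, with the lower mean of 8.05, gave -0.66 with siDUSP4 in MDA231. In control cells the kept probe placed ATF4 lowest in MDA231 and highest in BT549, with MDA231 minus BT549 at -0.67 and SUM159PT minus BT549 at -0.32, while the second probe gave 0.60 and 1.27, so the order of lines for ATF4 depends on the probe.

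DDIT3 (CHOP), a proapoptotic factor downstream of ATF4, read 8.47, 8.32 and 8.12 in MDA231 siCONTROL and 8.92, 8.45 and 8.67 at 4 h of selumetinib. The groups overlapped and the change of 0.38 ± 0.11 (n = 3 per group, limma adjusted p = 0.024) was lost without siCONTROL array B (adjusted p = 0.058), without siCONTROL array C (0.13), without 4 h array A (0.084) and without 4 h array C (0.073). With 4 h array A alone the change of DDIT3 was 0.62 (adjusted p = 0.029). With siDUSP4 it read 8.33, 8.27 and 8.14 and at 24 h 8.57, 8.29 and 8.26 in MDA231, overlapping the controls. In SUM159PT DDIT3 read 8.06, 8.15 and 8.01 with siCONTROL, 7.63, 7.87 and 7.72 with siDUSP4, 8.022, 7.996 and 8.028 at 4 h and 7.98, 8.04 and 8.12 at 24 h. The siDUSP4 arrays there lay below the controls, but the change of -0.33 did not pass the test (adjusted p = 0.13). In BT549 it read 11.33, 11.23 and 10.92 with siCONTROL, 11.26, 11.16 and 11.25 with siDUSP4, 11.02, 11.20 and 11.17 at 4 h and 11.03, 11.25 and 11.18 at 24 h, with all groups overlapping. Its largest contrast was between lines, at -2.86 for MDA231 minus BT549 in control cells.

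NUPR1, a small stress-induced chromatin protein, rose with selumetinib at both times in MDA231. In MDA231 it read 6.30, 6.53 and 6.31 with siCONTROL, 6.98, 7.44 and 6.95 at 4 h and 7.56, 7.73 and 7.41 at 24 h. Each 4 h array lay above each control array and 2 of the 24 h arrays above each 4 h array, with changes of 0.74 ± 0.11 (limma adjusted p = 2.4e-05) and 1.18 ± 0.11 (adjusted p = 9.1e-10, 2.27-fold). With MDA231 4 h array A alone, the 4 h change of NUPR1 was 0.60 (adjusted p = 0.019). In SUM159PT the 24 h arrays, at 10.22, 10.27 and 10.14, lay above the controls at 9.74, 9.78 and 9.70, a change of 0.47 (adjusted p = 0.01) that was lost without siCONTROL array C (0.45, adjusted p = 0.054) or 24 h array B (0.44, adjusted p = 0.064). In BT549 NUPR1 was at 11.30, 11.17 and 11.16 with siCONTROL and the change at 24 h was 0.01, whereas siDUSP4 arrays at 10.81, 10.92 and 10.90 lay below the controls, a fall of 0.33 (adjusted p = 0.042) that was lost without any 1 of the 6 arrays (adjusted p from 0.067 to 0.15). The 24 h change differed between MDA231 and BT549 by 1.17 (adjusted p = 3.3e-06) and between MDA231 and SUM159PT by 0.71 (adjusted p = 0.0034).

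CEBPG, the C/EBP partner of ATF4 whose own promoter holds the element, read 7.99, 7.78 and 7.51 in MDA231 controls, 7.23, 7.37 and 7.40 with siDUSP4, 7.48, 7.14 and 7.29 at 4 h and 7.12, 6.63 and 6.82 at 24 h. All treated arrays lay below all controls. The fall at 24 h was 0.90 ± 0.12 (limma adjusted p = 6.8e-07, to 53.5% of control), and those with siDUSP4 and at 4 h were 0.43 and 0.46. The siDUSP4 call was lost without siCONTROL array A (-0.31) or siDUSP4 array A (-0.38), and the 4 h call without siCONTROL array A (-0.34) or 4 h array B (-0.38). With 4 h array A alone the change of CEBPG was -0.28. Its 24 h change differed from that in SUM159PT by -0.69 (adjusted p = 0.0088) and from that in BT549 by -0.67 (adjusted p = 0.0087). CEBPB, another C/EBP factor, read 9.07, 9.12 and 9.07 in MDA231 controls and 8.97, 7.76 and 7.77 at 4 h, a fall of 0.92 ± 0.16 (adjusted p = 0.00034) carried by arrays B and C. With array A alone the change of CEBPB was -0.12, and at 24 h the arrays read 9.29, 9.13 and 9.29. ATF5, a relative of ATF4, read 8.95, 9.18 and 9.35 in BT549 controls and 8.47, 8.50 and 8.52 with siDUSP4, with no overlap and a fall of 0.66 ± 0.15 (adjusted p = 0.0027). In MDA231 and SUM159PT the siDUSP4 arrays of ATF5 overlapped their controls, with changes of -0.17 and -0.19. Its controls there averaged 5.77 and 5.53, near the median of all probes (5.27). A difference of the ATF5 change among lines was not called (F test over lines in limma, adjusted p = 0.18).

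Of the stress effectors, DDIT4 (REDD1), an inhibitor of mTORC1, moved in opposite directions in MDA231 under the 2 kinds of treatment. It read 10.40, 10.46 and 10.48 with siCONTROL, 9.08, 9.26 and 9.27 with siDUSP4, 11.27, 10.59 and 10.80 at 4 h and 11.53, 11.39 and 11.43 at 24 h. The siDUSP4 arrays were all below and the selumetinib arrays all above the controls, with changes of -1.25 ± 0.11 (limma adjusted p = 2.1e-10), 0.44 ± 0.11 (adjusted p = 0.0056) and 1.00 ± 0.11 (adjusted p = 8.9e-09, 2.00-fold). With 4 h array A alone the 4 h change of DDIT4 was 0.82 (adjusted p = 7.6e-06). In SUM159PT DDIT4 read 10.51, 10.57 and 10.43 with siCONTROL and 10.29, 10.45 and 10.36 with siDUSP4, and in BT549 11.43, 11.48 and 11.41 against 11.39, 11.40 and 11.39. No DDIT4 change was called in those lines, and the siDUSP4 change in MDA231 differed from theirs by -1.11 (adjusted p = 6e-06) and -1.20 (adjusted p = 7.6e-07). At 24 h the corresponding differences were 1.17 (adjusted p = 1.6e-06) and 1.18 (adjusted p = 1.3e-06). PPP1R15A (GADD34), which directs the phosphatase that removes the phosphate from eIF2, showed the mirrored order: in MDA231 it read 9.37, 9.36 and 9.34 with siCONTROL, 9.69, 9.93 and 9.80 with siDUSP4, 9.003, 8.982 and 8.967 at 4 h and 8.61, 8.57 and 8.45 at 24 h. No group overlapped another, and the changes were 0.45 (adjusted p = 0.0007), -0.37 (0.0087) and -0.81 (7.3e-08). With 4 h array A alone the change of PPP1R15A was -0.35, close to that of all arrays, and 1 array did not give a call (adjusted p = 0.47). In SUM159PT PPP1R15A at 4 h, with 7.91, 7.94 and 8.06, lay below the controls at 8.39, 8.39 and 8.54, a fall of 0.47 (adjusted p = 0.0034).

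STC2 responded to selumetinib in SUM159PT. There it read 8.87, 8.81 and 8.78 with siCONTROL, 8.28, 8.40 and 8.32 with siDUSP4, 7.37, 7.93 and 7.45 at 4 h and 8.19, 7.93 and 7.98 at 24 h. Each treated array lay below each control, with falls of 1.23 ± 0.14 at 4 h (limma adjusted p = 3.3e-07, to 42.5% of control) and 0.79 ± 0.14 at 24 h (adjusted p = 0.0004). The siDUSP4 fall of 0.49 (adjusted p = 0.046) was lost without any 1 of the 6 arrays (adjusted p from 0.09 to 0.18). In BT549 STC2 was at 11.35, 11.32 and 11.22 at 4 h against 11.28, 11.43 and 11.45, with overlap, and in MDA231 it lay below the median of all probes in every siCONTROL array. VLDLR, a lipoprotein receptor induced by ATF4, fell in MDA231 and BT549. In BT549 it read 8.46, 8.80 and 8.86 with siCONTROL, 8.26, 8.14 and 8.29 at 4 h and 7.47, 7.60 and 7.75 at 24 h, with changes of -0.47 (adjusted p = 0.037) and -1.10 ± 0.11 (adjusted p = 3e-07), and -1.03 at 24 h without array A. The 4 h call was lost without siCONTROL array B or C or any 4 h array (adjusted p from 0.091 to 0.26). In MDA231 VLDLR read 9.61, 9.60 and 9.50 with siCONTROL and 8.82, 8.90 and 8.86 with siDUSP4, a fall of 0.71 (adjusted p = 2.1e-05).

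**Figure D5:**
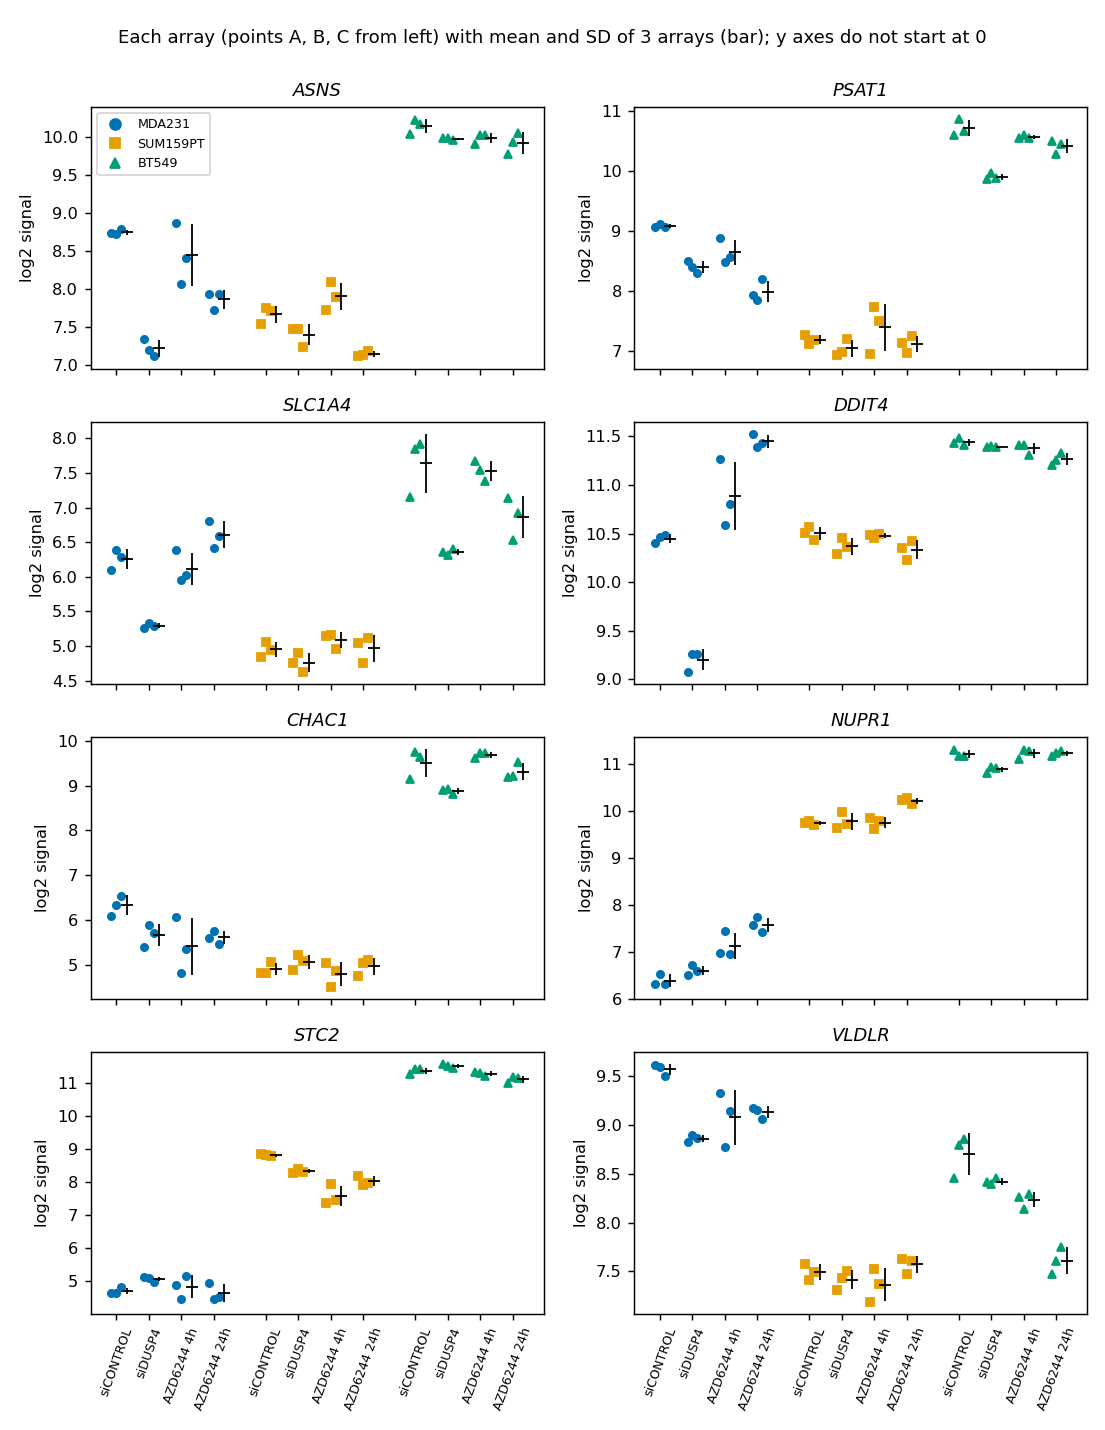
Deposited log2 level of 8 genes (ASNS, PSAT1, SLC1A4, DDIT4, CHAC1, NUPR1, STC2 and VLDLR) in every array (points) of each line and treatment, with group mean and SD over 3 arrays. In MDA231 the siDUSP4 points of ASNS and DDIT4 lie below all siCONTROL points, and the 24 h points of NUPR1 and DDIT4 lie above them.

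CHAC1, which degrades glutathione, read 6.11, 6.35 and 6.55 in MDA231 controls, 5.41, 5.90 and 5.72 with siDUSP4, 6.08, 4.82 and 5.37 at 4 h and 5.61, 5.77 and 5.49 at 24 h. The groups did not overlap the controls, and the falls were 0.66 (limma adjusted p = 0.016), 0.91 (0.0022) and 0.71 (0.0083). The siDUSP4 call of CHAC1 was lost without siCONTROL array C (-0.55) or siDUSP4 array A (-0.52), the 4 h call without 4 h array B (-0.61) and the 24 h call without siCONTROL array C (-0.61). With 4 h array A alone its change was -0.25. In BT549 it read 9.15, 9.74 and 9.63 with siCONTROL and 8.90, 8.92 and 8.81 with siDUSP4, a fall of 0.63 (adjusted p = 0.027) that was lost without each of siCONTROL B and C and each siDUSP4 array (adjusted p from 0.06 to 0.16). In SUM159PT CHAC1 was at 4.83, 4.84 and 5.07 in controls, below the median of all probes. TRIB3, a pseudokinase that feeds back on ATF4, read 7.73, 7.66 and 7.74 in MDA231 controls, 6.94, 7.39 and 7.09 with siDUSP4 and 7.39, 6.24 and 6.94 at 4 h. All treated arrays were below the controls, with falls of 0.57 (adjusted p = 0.011) and 0.85 (0.00063), the first lost without siDUSP4 array A (-0.47) and the second at -0.32 with 4 h array A alone. HERPUD1, a factor of endoplasmic reticulum protein degradation, fell with siDUSP4 by 0.63 in MDA231, and SESN2 fell at 24 h by 0.74 in MDA231.

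Among the enzymes, ASNS, asparagine synthetase, had the largest change with siDUSP4 of the 39 genes in MDA231. It read 8.74, 8.72 and 8.79 with siCONTROL, 7.34, 7.19 and 7.12 with siDUSP4, 8.88, 8.07 and 8.41 at 4 h and 7.94, 7.72 and 7.94 at 24 h. The siDUSP4 and 24 h arrays lay below all controls, while the 4 h arrays overlapped them. The falls were 1.53 ± 0.13 (limma adjusted p = 1.5e-10, to 34.6% of control) and 0.88 ± 0.13 (adjusted p = 3.4e-06). In SUM159PT ASNS read 7.54, 7.75 and 7.71 with siCONTROL, 7.48, 7.47 and 7.23 with siDUSP4 and 7.11, 7.12 and 7.19 at 24 h, and only the 24 h fall of 0.53 was called (adjusted p = 0.012), a call lost without siCONTROL array B (-0.49) or C (-0.51) or 24 h array B (-0.52). In BT549 it read 10.04, 10.23 and 10.17 with siCONTROL and 9.99, 9.99 and 9.96 with siDUSP4, a change of -0.17 (adjusted p = 0.46). The siDUSP4 change in MDA231 differed from that in SUM159PT by -1.26 (adjusted p = 1.8e-05) and from that in BT549 by -1.36 (adjusted p = 2.2e-06).

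The serine pathway runs through PHGDH, PSAT1 and PSPH to SHMT2, which moves a carbon from serine to folate. PSAT1 read 9.07, 9.11 and 9.06 in MDA231 controls, 8.50, 8.39 and 8.30 with siDUSP4, 8.88, 8.49 and 8.56 at 4 h and 7.92, 7.85 and 8.19 at 24 h. All treated arrays lay below the controls, with falls of 0.68 (limma adjusted p = 0.00028), 0.44 (0.024) and 1.09 ± 0.13 (1.5e-07). The 4 h call of PSAT1 was lost without each array of the 2 groups other than 4 h array A (adjusted p from 0.052 to 0.2). In BT549 PSAT1 read 10.60, 10.86 and 10.67 with siCONTROL and 9.86, 9.96 and 9.87 with siDUSP4, a fall of 0.81 (adjusted p = 4.3e-05), and in SUM159PT the siDUSP4 arrays overlapped the controls. PHGDH read 8.23, 8.19 and 8.15 in MDA231 controls and 7.44, 7.68 and 7.59 with siDUSP4, and 10.44, 10.55 and 10.51 in SUM159PT controls and 9.60, 9.68 and 9.85 with siDUSP4. The groups did not overlap in either line, with falls of 0.62 (adjusted p = 7.2e-05) and 0.79 ± 0.11 (1e-05). In BT549 the PHGDH arrays read 10.02, 10.39 and 10.27 against 10.16, 10.25 and 10.25, a change near zero that differed from that in SUM159PT by 0.79 in size (SUM159PT minus BT549 -0.79, adjusted p = 0.0012). PSPH fell with siDUSP4 in MDA231 (-0.46) and BT549 (-0.59), and SHMT2 in MDA231 (-0.46) and BT549 (-0.45). The PSPH calls were lost in MDA231 without siCONTROL array A (-0.40) or B (-0.44) or siDUSP4 array A (-0.38), and in BT549 without siDUSP4 array B (-0.42). With siDUSP4 all of these steps were called in MDA231, PHGDH in SUM159PT, and PSAT1, PSPH and SHMT2 in BT549. A difference of the change among lines was not called for PSPH or SHMT2 (F test over lines in limma, adjusted p = 0.056 and 0.16). The calls of those genes therefore do not separate the lines. At 4 h in MDA231 the PSAT1 and PHGDH changes were -0.20 and -0.05 with array A alone.

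PYCR1, the last enzyme of proline synthesis, read 9.21, 9.14 and 9.26 in MDA231 controls, 8.31, 8.53 and 8.47 with siDUSP4 and 9.15, 8.28 and 8.50 at 4 h. The siDUSP4 arrays lay below the controls (-0.76 ± 0.13, limma adjusted p = 3.6e-05), while 4 h array A overlapped them and arrays B and C did not (-0.56, adjusted p = 0.0035, and -0.05 with array A alone). ALDH18A1 fell with siDUSP4 in MDA231 by 0.49 (adjusted p = 0.00046). ALDH1L2 rose at 24 h in MDA231 by 0.55 (adjusted p = 0.0018), from a level below the median of all probes to one still below it. CTH read 5.85, 6.35 and 6.43 in BT549 controls and 5.36, 5.63 and 5.78 at 24 h, a fall of 0.62 (adjusted p = 0.016) that was lost without siCONTROL array B (-0.55) or C (-0.51) and without 24 h array A (-0.50). MTHFD2, a mitochondrial folate enzyme, was called in no treatment comparison, with changes from -0.28 (24 h in MDA231) to 0.08.

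Of the transporters, SLC1A4, a carrier of alanine, serine, cysteine and threonine, fell with siDUSP4 in MDA231 and BT549, where its controls lay above the median of all probes. In MDA231 it read 6.10, 6.38 and 6.29 with siCONTROL and 5.26, 5.33 and 5.29 with siDUSP4, and in BT549 7.15, 7.85 and 7.92 against 6.36, 6.31 and 6.41. Neither pair of groups overlapped, with falls of 0.96 ± 0.16 (limma adjusted p = 2.9e-05) and 1.28 ± 0.16 (adjusted p = 3.7e-07, to 41.1% of control). In SUM159PT it read 4.84, 5.06 and 4.94 against 4.76, 4.90 and 4.63, overlapping and below that median, and the change of -0.19 differed from that in BT549 by 1.09 (adjusted p = 0.0018). At 24 h of selumetinib SLC1A4 fell in BT549 (7.13, 6.54 and 6.93, a change of -0.78, adjusted p = 0.0023, and -0.91 without array A), and in MDA231 it read 6.81, 6.42 and 6.59, above its controls by 0.35 (adjusted p = 0.14).

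SLC7A11, the cystine and glutamate exchanger that is also a target of NRF2, went the other way in SUM159PT. It read 8.02, 7.95 and 8.06 there with siCONTROL, 9.01, 8.82 and 8.72 with siDUSP4 and 7.50, 7.72 and 7.40 at 24 h. The siDUSP4 arrays were all above the controls and the 24 h arrays all below, with changes of 0.84 ± 0.11 (limma adjusted p = 1.1e-05, 1.79-fold) and -0.47 (adjusted p = 0.013), the latter lost without siCONTROL array C (-0.45) and without 24 h array A (-0.45) or C (-0.40). In MDA231 the SLC7A11 arrays read 9.90, 10.00 and 10.03 with siCONTROL and 10.22, 10.26 and 10.27 with siDUSP4, without overlap, but the change of 0.27 was not called (adjusted p = 0.11). Its partner chain SLC3A2 rose by 0.33 in MDA231 (adjusted p = 0.021), a call lost without siCONTROL array A (0.24) or B (0.31) or siDUSP4 array B (0.30) or C (0.31). The leucine carrier SLC7A5 and the cationic amino acid carrier SLC7A1 fell with siDUSP4 in MDA231 by 0.41 and 0.47, the glutamine carrier SLC1A5 by 0.38, and the SLC7A5 and SLC1A5 calls were lost without siCONTROL array C (-0.27 and -0.28), siDUSP4 array A (-0.35 and -0.30) or siDUSP4 array C (-0.39 and -0.36). SLC38A2, a carrier of small neutral amino acids, was called in no treatment comparison, with changes from -0.13 to 0.13.

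The called changes of the tRNA genes were at most 0.51 in size. XPOT, the export receptor of tRNA, fell in MDA231 with siDUSP4 (-0.48), at 4 h (-0.41) and at 24 h (-0.42), and the 4 h call was lost without 4 h array B (-0.35) and stood at -0.21 with array A alone. Of the tRNA synthetases WARS1 (tryptophan) fell with siDUSP4 in MDA231 by 0.51 (limma adjusted p = 5.9e-05) and in BT549 by 0.43 (0.00063), and AARS1 (alanine) in MDA231 by 0.43 (0.00012). At 24 h in MDA231 GARS1 (glycine), MARS1 (methionine) and NARS1 (asparagine) fell by 0.35, 0.38 and 0.39. MARS1 in SUM159PT read 9.51, 9.47 and 9.44 with siCONTROL and 9.70, 9.96 and 9.76 at 4 h, without overlap, but the rise of 0.34 (adjusted p = 0.046) was lost without any 1 of the 6 arrays (adjusted p from 0.075 to 0.18) and with the letters as a replicate block (0.067). SARS1 and EPRS1 were called in no single line.

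The change with siDUSP4 differed among the 3 lines for 19 of the 39 genes (F test over lines in limma, adjusted p under 0.05), where 15.5% of all genes differed. At 4 h 4 genes did (1.84% of all genes) and at 24 h 14 (9.91%). From 4 h to 24 h of selumetinib in MDA231, 13 genes were higher at 24 h and 7 lower, where 20.4% and 4.48% of all genes were called in those directions. After repeated quantile normalization 7 were higher and 13 lower, and with 4 h array A alone more were lower than higher. The shares of all genes are not given for those fits. Whether the turn is particular to the 39 genes was not tested. In SUM159PT ASNS (-0.76), SLC7A11 (-0.52) and MARS1 (-0.40) were lower at 24 h than at 4 h and NUPR1 higher (0.47), against 0.685% and 2.32% of all genes. In BT549 SLC1A4 (-0.67), VLDLR (-0.62) and CTH (-0.53) were lower (5.82% of all genes, with 1.91% higher).

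The genes with the composite element in their promoter window were set beside those without. With siDUSP4 in MDA231, 9 of the 12 with it fell and 1 rose, with a median change of -0.43, and 10 of the 21 without it fell and 1 rose, with a median of -0.28 (9.77% of all genes were lower and 7.86% higher). At 24 h in MDA231 the medians were -0.37 and -0.07, and 7 of 12 and 6 of 21 fell (10.3% of all genes). At 4 h the order was the other way, with medians of -0.24 and -0.35. DDIT4, VLDLR and PSAT1, which fell with siDUSP4 in MDA231, were not among the 12. In control cells all 12 with the element and 18 of 21 without it were lower in MDA231 than in BT549 (26.3% of all genes). The difference between genes with and without the element was not tested.

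The genes upstream of ATF4 and its further targets were read from lists of their own. Of 15 genes for eIF2 kinases, eIF2 and eIF2B, siDUSP4 in MDA231 raised 3 and lowered 1, with a median change of 0.17 (7.86% of all genes rose and 9.77% fell). IMPACT, an inhibitor of the amino acid sensing kinase GCN2, fell by 1.05, and EIF2B3, a subunit of the exchange factor of eIF2, rose by 0.48. The kinase genes EIF2AK4 (GCN2) and EIF2AK3 (PERK) were not called with siDUSP4 in MDA231, at 0.17 and 0.14. At 24 h 5 of the 15 fell in BT549 (12.4% of all genes), among them EIF2AK4 by 0.57. Without array A of that group no call was left among these 5, with EIF2AK4 at -0.30 (adjusted p = 0.081), while 2.04% of all genes were called lower. Of 23 other ATF4 targets, 8 fell and 3 rose with siDUSP4 in MDA231 (9.77% and 7.86% of all genes), and 5 fell and 1 rose in BT549 (9.22% and 4.97%). In MDA231 NDRG1 and the glycine carrier SLC6A9 fell by 0.96 and 0.98, and MTHFD1L by 0.73. GDF15, a secreted stress cytokine, rose by 0.88 with siDUSP4 in MDA231 and fell by 1.07 in SUM159PT, and at 4 h of selumetinib it fell by 1.30 and 1.59 in those lines, with the MDA231 value at -0.45 and not called with 4 h array A alone. TNFRSF10B, the DR5 death receptor, fell at 4 h by 1.17 in MDA231 (-0.67 with array A alone, still called) and by 0.52 in SUM159PT. Of 12 further tRNA synthetases measured, 2 rose and 1 fell with siDUSP4 in MDA231 (7.86% and 9.77% of all genes), and 6 fell there at 24 h (10.3% of all genes), among them LARS1 (-0.33) and FARSB (-0.42).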

How the data were processed

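Total RNA from 36 cultured samples was labelled with the maker's whole-transcript sense kit and hybridised to single-colour Affymetrix arrays, per the labels' protocols. The authors deposited log2 expression values. Per the submitters' processing notes they came from RMA, run in Affymetrix Expression Console 1.1. The RMA options and genome build are not given in the sources used. Of 33297 probes, 19181 had 1 gene symbol, 2055 several and 12061 none here. Only those with 1 symbol were used, which gave 17958 genes, and ATF4, MTHFD2, PSPH and SLC1A5 each had a second probe.

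The deposited log2 values were used as they stand, without a filter on dim genes. All 12 group means were fitted together with limma 3.58.1 in R 4.3.3 (24 residual and 7.80 prior degrees of freedom). Benjamini-Hochberg adjustment ran over all genes within a comparison, and calls needed an adjusted p below 0.05. All tests are two-sided, and an exact permutation test of 3 against 3 arrays could not go below 0.1. Precision is limited by the number of arrays. The model was tested on simulated data with independent noise for each gene and array. These held no shift of whole arrays, so the simulation cannot judge arrays of low signal. The genes given in every array are ATF4, DDIT3 and, in each treatment comparison, up to 4 called members with the largest change. The genes, the lists and these rules were chosen with earlier results of these data known. Alternatives were the arrays of a line alone, the 2 compared groups alone, a replicate block, repeated quantile normalization, aligned array medians, an intensity trend with a robust prior, the mean of all probes, a filter on dim genes and leaving out each array. A fit with array A as the only MDA231 4 h array and, for the further lists, a fit without BT549 24 h array A were added after seeing the data. Same-lettered arrays were taken as unpaired: of 27 same-letter pairs across the groups of a line, 6 had deviations correlated above 0.1, with a range of -0.41 to 0.34. SUM159PT 4 h was the only group with all 3 letters above 0.1, between 0.11 and 0.27. Promoters come from RefSeq's GRCh38.p14 table.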

Additional observations from a re-analysis of the deposited data

Results flagged for a closer look

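The change with siDUSP4 differed among the 3 lines for 19 of the 39 genes by the F test over lines (limma, Benjamini-Hochberg adjusted over all genes). Log2 changes against siCONTROL are given in the order MDA231, SUM159PT and BT549. DDIT4 stood at -1.25, -0.13 and -0.05 (adjusted p = 3.8e-07). For ASNS the changes were -1.53, -0.27 and -0.17 (adjusted p = 1.2e-06). PHGDH gave -0.62, -0.79 and 0.00 (adjusted p = 0.00083). The changes of WARS1 were -0.51, 0.07 and -0.43 (adjusted p = 0.0016). SLC7A1 stood at -0.47, 0.17 and 0.07 (adjusted p = 0.0016). For SLC1A4 the changes were -0.96, -0.19 and -1.28 (adjusted p = 0.0017). MDA231 had the lowest change of the 3 lines for DDIT4, ASNS, SLC7A1 and WARS1, and SUM159PT for PHGDH. ATF4 gave -0.54, -0.06 and 0.06 (adjusted p = 0.003). The changes of SLC7A11 were 0.27, 0.84 and 0.13 (adjusted p = 0.0046). STC2 stood at 0.36, -0.49 and 0.15 (adjusted p = 0.0053). For PPP1R15A the changes were 0.45, -0.13 and 0.07 (adjusted p = 0.0067). VLDLR gave -0.71, -0.08 and -0.28 (adjusted p = 0.016). The changes of HERPUD1 were -0.63, -0.08 and -0.10 (adjusted p = 0.016). ALDH18A1 stood at -0.49, -0.02 and -0.03 (adjusted p = 0.023). PPP1R15A and STC2 were the genes of this group with a positive change in MDA231 and a negative one in SUM159PT. For PSAT1 the changes were -0.68, -0.15 and -0.81 (adjusted p = 0.024). AARS1 gave -0.43, -0.17 and -0.03 (adjusted p = 0.031). The changes of PYCR1 were -0.76, -0.15 and -0.28 (adjusted p = 0.033). NUPR1 stood at 0.21, 0.03 and -0.33 (adjusted p = 0.039). For TRIB3 the changes were -0.57, 0.13 and 0.08 (adjusted p = 0.047). SLC7A5 gave -0.41, 0.01 and 0.13 (adjusted p = 0.049).

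At 4 h of selumetinib the change differed among the lines for 4 genes, and the MDA231 values of CEBPB and SLC7A5 were -0.12 and -0.13 with array A alone. With MDA231 4 h array A alone fewer genes differed. The changes of STC2 were 0.13, -1.23 and -0.09 (adjusted p = 7.3e-05). NUPR1 stood at 0.74, 0.00 and 0.01 (adjusted p = 0.0059). For SLC7A5 the changes were -0.50, 0.39 and 0.11 (adjusted p = 0.0062). CEBPB gave -0.92, 0.02 and -0.01 (adjusted p = 0.028).

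At 24 h of selumetinib the change differed among the lines for 14 genes. The changes of DDIT4 were 1.00, -0.17 and -0.18 (adjusted p = 3.2e-07). NUPR1 stood at 1.18, 0.47 and 0.01 (adjusted p = 1e-05). For VLDLR the changes were -0.44, 0.07 and -1.10 (adjusted p = 1.5e-05). PPP1R15A gave -0.81, -0.19 and -0.09 (adjusted p = 0.00046). The changes of PSAT1 were -1.09, -0.07 and -0.30 (adjusted p = 0.00059). SLC1A4 stood at 0.35, 0.02 and -0.78 (adjusted p = 0.0017). For PHGDH the changes were -0.75, -0.02 and -0.19 (adjusted p = 0.0028). DDIT4 and NUPR1 had their highest change in MDA231, and VLDLR its lowest in BT549. ALDH1L2 gave 0.55, 0.11 and -0.32 (adjusted p = 0.0043). The changes of SESN2 were -0.74, 0.28 and -0.25 (adjusted p = 0.0048). CEBPG stood at -0.90, -0.21 and -0.24 (adjusted p = 0.0059). For SLC1A5 the changes were -0.60, -0.09 and -0.03 (adjusted p = 0.025). STC2 gave -0.06, -0.79 and -0.26 (adjusted p = 0.029). The changes of SLC7A11 were 0.10, -0.47 and 0.03 (adjusted p = 0.031). ASNS stood at -0.88, -0.53 and -0.22 (adjusted p = 0.041).

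No explanation of these differences was tested, and line and growth medium cannot be told apart.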

How the results depend on the processing

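No change called in the main fit or in an alternative had the opposite sign in the other. Changes called in neither were not counted here, and some did change sign. At 4 h in MDA231, 34 of 39 were negative over all arrays, against 18 in array A taken singly. Of 351 single-gene changes the replicate block kept 345 on their side of the threshold, with 5 lost and 1 gained. Repeated quantile normalization kept 325 (8 lost, 18 gained) and the line's arrays alone 315 (27 lost, 9 gained). The cause of the following moves was not tested, and shares of all genes are not given for them. With the line's arrays alone the number of genes called was 3 at 4 h and 8 from 4 h to 24 h in MDA231, 5 with siDUSP4 and 8 at 4 h in SUM159PT, and 0 at 4 h and 1 from 4 h to 24 h in BT549. With the 2 groups alone, which leaves fewer arrays for the spread, it was 0 at 4 h and 2 from 4 h to 24 h in MDA231, 5 with siDUSP4 and 2 from 4 h to 24 h in SUM159PT, and 0 at 4 h, 1 at 24 h and 0 from 4 h to 24 h in BT549. With the replicate block it was 0 at 4 h in BT549, and no other count moved by over 1.5 times. Where limma called 0, an unadjusted p under 0.05 was met by 15 genes at 4 h in MDA231, by 2 or 3 at 4 h in BT549 and by 5 from 4 h to 24 h in BT549. Of the arrays in the 27 same-letter pairs, 8 correlated best with their own letter. Outside SUM159PT 4 h, correlations above 0.1 were those of MDA231 24 h C (0.34), MDA231 siDUSP4 A (0.28) and SUM159PT 24 h C (0.23). The labels do not say what the letters stand for, so a shared batch for some letters remains possible. Repeated quantile normalization gave 5 with siDUSP4 and 6 at 4 h in SUM159PT, 13 with siDUSP4 and 1 from 4 h to 24 h in BT549, and 11 genes with a line difference at 4 h. In the 4 h mean of lines it split 3 higher and 5 lower, at 4 h in SUM159PT 4 and 2 (array medians aligned: 2 lower), at 24 h in BT549 1 and 2, and aligning medians split siDUSP4 in SUM159PT 1 and 1 and 4 h to 24 h in MDA231 7 and 8. An intensity trend with a robust prior gave 7 genes with a line difference at 4 h. With MDA231 4 h array A only, fewer genes were called at 4 h, in the 4 h mean of lines, from 4 h to 24 h and for the line difference.

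Leaving out 1 array in turn gave ranges of 17 to 22 (siDUSP4), 7 to 24 (4 h; lowest without 4 h B, highest without 4 h A), 16 to 17 (24 h) and 12 to 21 (4 h to 24 h) in MDA231. In SUM159PT they were 2 to 2, 2 to 2, 1 to 4 and 2 to 5, and in BT549 5 to 8 (lowest without siDUSP4 B), 0 to 1, 2 to 4 and 1 to 4. In the mean of lines they were 18 to 22, 7 to 20 and 17 to 21, for the line difference 14 to 20, 3 to 21 and 11 to 14, and between control lines 26 to 28 (MDA231 and SUM159PT), 35 to 38 (MDA231 and BT549) and 33 to 35 (SUM159PT and BT549). The dim-probe filter kept all 39 genes among 11503. Genes below the median of all probes, such as ALDH1L2 in MDA231 and SUM159PT, have compressed changes on this scale, and 3 arrays per group limit what a missed call can show.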

Other observations

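SLC7A11 and SLC3A2 are shared with the NRF2 program, which protects against oxidants. Of 11 NRF2 targets measured, 8 rose at 24 h of selumetinib in MDA231 (7.36% of all genes), with a median change of 0.57, and HMOX1, heme oxygenase, rose by 1.16 and AKR1C1, an aldo-keto reductase, by 1.34 (limma adjusted p = 1.6e-10 and 9.5e-08). SLC7A11 was at 0.10 in that comparison and was not called. With siDUSP4 in MDA231 4 NRF2 targets rose and 1 fell (7.86% and 9.77% of all genes), with HMOX1 at 0.98 and AKR1C1 at 0.73, both called. In SUM159PT, where SLC7A11 rose with siDUSP4, HMOX1 and AKR1C1 were at -0.05 and 0.20 and were not called. In BT549 4 of the 11 fell with siDUSP4 (9.22% of all genes), among them NFE2L2, which encodes NRF2, by 0.26.

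Of 18 genes of the other arms of the unfolded protein response, 1 rose and 4 fell with siDUSP4 in MDA231 (7.86% and 9.77% of all genes). SDF2L1, an endoplasmic reticulum chaperone partner, rose by 0.59 there and by 0.68 in BT549, and SEL1L, part of the degradation complex of the endoplasmic reticulum, fell by 0.37 and 0.53. ERN1, which encodes the stress sensor IRE1, fell with selumetinib in MDA231 by 0.89 at 4 h and by 0.78 at 24 h, and the 4 h change was -0.41 and not called with array A alone. DNAJB9, a chaperone induced through IRE1, fell by 0.56 at 24 h in BT549 (-0.52 and not called without array A) and was at -0.38 in MDA231, where it was not called.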
